A study of Mus musculus with 15 samples.

Results

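The subject is the kappa light chain variable genes (Igkv), the germline segments from which most mouse antibody light chains are built, measured by polyA RNA-seq in cultured mouse B cells. Members were all rows of the deposited gene table whose identifier carries a symbol starting with Igkv and whose expected count was above 0 in at least 1 library. This gave 133 of the 160 Igkv symbols listed, among 51912 rows in all. The other 27 symbols were at 0 in every library and all are annotated as pseudogenes. Of the 133 members, 100 are annotated as V genes and 33 as V pseudogenes, and they fall into 20 numbered families.

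There were 15 libraries in 5 groups of 3, all from wild-type cells listed with no treatment. B cells were grown for 6 days on 40LB cells, a fibroblast feeder line made to carry CD40 ligand and BAFF, with IL-4 at 100 ng/ml, and a bulk, unsorted sample was taken then (day 6 bulk). All other cells were moved off the feeder layer, left without stimulation for 2 further days and sorted at day 8 into IgE and IgG1 cells that had become plasma cells (IgE PC and IgG1 PC) or had not (IgE iGC and IgG1 iGC, the name the labels use). The labels call the replicates biological and independent but do not say whether they came from separate animals or cultures, so p-values here measure only the spread between these samples.

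A B cell builds its kappa chain by joining 1 V segment to 1 of the J segments of the Igkj cluster, next to which lies the single constant exon, Igkc. The joined V segment is the one transcribed at a high rate, so the mix of Igkv transcripts in a population mirrors which segments its cells joined and how much light chain RNA each cell holds. In bulk RNA, more cells using a segment and more RNA per cell cannot be told apart. When a B cell becomes a plasma cell, light chain transcription rises steeply to feed antibody secretion. Switching from IgM to IgG1 or IgE changes the heavy chain constant region and leaves the kappa V segment in place.

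Members lie on chromosome 6 within 3149 kb on the GRCm38 build, from 18.4 to 3166 kb upstream of Igkj1, with 58 on the strand of Igkc and 75 on the other. They are close relatives: 73 members share at least 1 stretch of 76 bases, the read length, with another member. Reads from such a stretch fit several genes and the counting program divides them, which leaves fractional counts. In 64 members the count was fractional in all 15 libraries, and in 27 it was whole, to within 0.005, in all of them. Values for single genes below are therefore estimates, and the text gives the sum over close relatives where it bears on a result.

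The V exons of 3 pairs are printed because a gene of each pair is named in the usage results below and because they show how few bases separate such relatives. They are coding-strand sequences of GENCODE vM21 transcripts, 5′ to 3′, in lower case, with capitals at the bases that differ from the other gene of the pair. The pair Igkv12-41 and Igkv12-44 lies at chr6:69858420-69858717 and chr6:69814631-69814928, both on the minus strand of GRCm38. Its 298 bases differ at 13 places, an identity of 95.6%.
Igkv12-41: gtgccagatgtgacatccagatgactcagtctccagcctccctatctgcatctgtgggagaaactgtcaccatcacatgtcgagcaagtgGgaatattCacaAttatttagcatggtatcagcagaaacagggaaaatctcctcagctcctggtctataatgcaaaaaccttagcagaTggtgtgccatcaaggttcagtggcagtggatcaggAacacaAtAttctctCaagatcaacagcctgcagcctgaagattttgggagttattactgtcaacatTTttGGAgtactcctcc
Igkv12-44: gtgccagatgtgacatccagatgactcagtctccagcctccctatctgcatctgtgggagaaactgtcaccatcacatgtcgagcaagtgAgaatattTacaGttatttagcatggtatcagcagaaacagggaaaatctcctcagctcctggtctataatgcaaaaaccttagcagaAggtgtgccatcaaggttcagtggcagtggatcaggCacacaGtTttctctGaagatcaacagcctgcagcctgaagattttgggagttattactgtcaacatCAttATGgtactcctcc
The pair Igkv9-120 (chr6:68050159-68050456, plus strand) and Igkv9-124 (chr6:67942074-67942371, minus strand) differs at 12 of 298 bases, an identity of 96.0%.
Igkv9-120: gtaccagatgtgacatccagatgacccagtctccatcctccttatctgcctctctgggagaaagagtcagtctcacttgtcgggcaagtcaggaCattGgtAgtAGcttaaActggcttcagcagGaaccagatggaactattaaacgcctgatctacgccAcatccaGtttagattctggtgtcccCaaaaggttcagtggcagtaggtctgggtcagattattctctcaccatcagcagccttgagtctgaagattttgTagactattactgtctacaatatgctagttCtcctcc
Igkv9-124: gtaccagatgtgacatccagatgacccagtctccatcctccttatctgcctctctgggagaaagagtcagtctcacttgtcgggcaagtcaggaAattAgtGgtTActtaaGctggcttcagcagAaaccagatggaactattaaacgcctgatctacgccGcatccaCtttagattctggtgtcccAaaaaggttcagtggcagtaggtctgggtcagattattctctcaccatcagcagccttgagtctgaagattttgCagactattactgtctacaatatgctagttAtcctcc
The pair Igkv1-110 (chr6:68270968-68271267) and Igkv1-117 (chr6:68121528-68121827), both on the plus strand, differs at 10 places. The last 300 bases of each exon are shown.
Igkv1-110: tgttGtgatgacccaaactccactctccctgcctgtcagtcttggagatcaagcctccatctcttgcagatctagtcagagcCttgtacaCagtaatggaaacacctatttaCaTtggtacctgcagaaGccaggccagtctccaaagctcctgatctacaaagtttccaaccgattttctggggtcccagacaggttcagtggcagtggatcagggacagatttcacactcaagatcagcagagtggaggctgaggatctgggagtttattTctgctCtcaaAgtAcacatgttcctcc
Igkv1-117: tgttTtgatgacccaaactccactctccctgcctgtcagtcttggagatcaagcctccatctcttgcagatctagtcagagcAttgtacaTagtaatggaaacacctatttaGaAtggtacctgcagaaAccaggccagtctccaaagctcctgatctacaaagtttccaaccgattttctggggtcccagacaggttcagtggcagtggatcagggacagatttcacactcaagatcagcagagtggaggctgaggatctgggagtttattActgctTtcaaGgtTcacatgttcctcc
The shared 76-base stretches were counted over whole transcripts, so some lie outside the exons printed. Igkv12-41 shares 38 such stretches with Igkv12-44, or 14.0% of its own, and no other member shares one with it. Igkv9-120 shares 27 with Igkv9-124, and Igkv1-110 shares 99, or 30.4% of its own, with Igkv1-117.

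Libraries held between 17.7 M and 54.1 M expected counts, of which Igkv genes took between 29832 and 1060959. The labelled cell types were checked against marker genes, as the sum over each list of CPM, counts scaled to a common library total. The 5 plasma cell markers (Sdc1, Prdm1, Xbp1, Irf4, Jchain) summed to between 13038 and 14327 in IgE PC. In IgG1 PC their sum lay between 8837 and 11712. It was 705 to 797 in IgE iGC, 407 to 429 in IgG1 iGC and 526 to 574 at day 6. The 5 B cell markers summed to between 2423 and 2652 in IgE PC and between 3889 and 4309 in IgG1 PC, against at least 4716 elsewhere. The 6 fibroblast markers, which could come from the feeder layer, summed to between 225 and 343 at day 6, to between 37.9 and 70.1 in iGC, to between 14.5 and 24.3 in IgE PC and to between 62.2 and 156 in IgG1 PC. T cell markers summed to at most 2.20, with Cd3e at 0 in 14 libraries, and myeloid markers to at most 26.5.

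Usage of a gene is its count as a percent of all Igkv counts in that library. Usage was spread over many genes in every group. The 36 genes with a mean usage of at least 1% held 78.2% of Igkv counts, and 53 members had a mean under 0.1%. Igkv10-96, a gene of the middle of the locus (chr6:68631963-68632442, minus strand), was the most used gene in 14 libraries. Its usage was 6.54%, 6.98% and 6.75% at day 6, 5.79%, 6.00% and 5.60% in IgE iGC, and 5.82%, 6.03% and 6.13% in IgG1 iGC. It was 5.81%, 5.85% and 5.99% in IgE PC and 5.58%, 5.51% and 5.68% in IgG1 PC. Day 6 lay above every sorted library, and the sorted groups lay within 1 percentage point of each other.

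The next genes by mean usage were Igkv1-117 (4.99%), Igkv1-135 (4.73%), Igkv1-110 (4.12%) and Igkv6-15 (3.97%). Igkv1-135 and Igkv6-15 stand at opposite ends of the locus, 3112 and 316 kb from Igkj1. The group means of Igkv6-15 differed by at most 1.11-fold and those of Igkv1-135 by at most 1.17-fold. The remaining genes of the leading 10 were Igkv19-93 (3.67%), Igkv6-23 (3.18%), Igkv14-111 (2.76%), Igkv17-127 (2.73%) and Igkv5-43 (2.47%). Of these, Igkv19-93 ran from 3.88% to 4.38% in iGC and from 2.70% to 3.05% in IgG1 PC, with IgE PC between (3.40% to 3.65%). Igkv6-23 was instead highest in IgG1 PC (3.65% to 3.95%), above all other libraries (2.72% to 3.18%). Igkv14-111 fell within 3.35% and 3.50% at day 6 and 2.80% and 3.33% in iGC, but between 1.94% and 2.73% in PC.

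**Figure D1:**
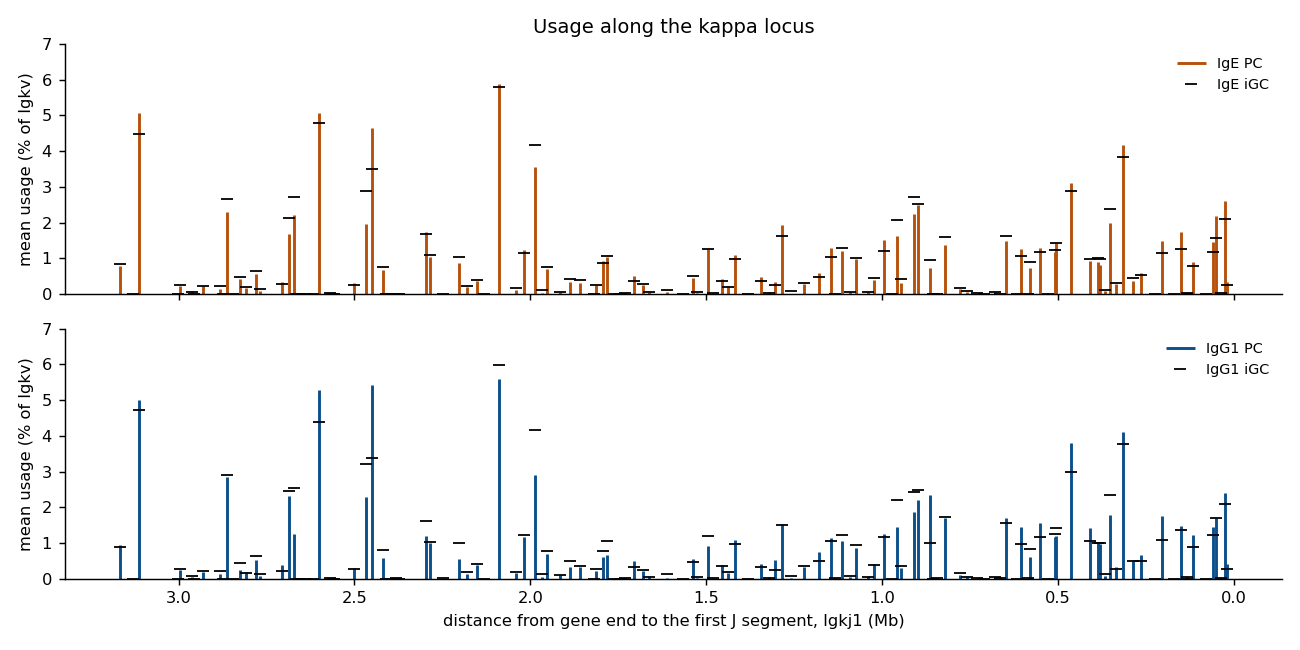
Mean usage of each Igkv gene (percent of Igkv counts, 3 libraries) against its distance from Igkj1 in Mb, for IgE (upper panel) and IgG1 (lower panel). Vertical lines are PC and black ticks iGC; most lines end near their ticks, and Igkv1-110, near 2.5 Mb, rises above its tick in both panels.

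Shares by position along the locus differed by a few percentage points between groups, mainly in IgG1 PC. Shares by orientation were nearly the same in all groups. The 50 members nearest to Igkj1 (18.4 to 1041 kb) took between 41.5% and 42.9% of Igkv counts in all libraries except those of IgG1 PC, where they took 44.8%, 44.1% and 45.3%. The 41 middle members (1073 to 2090 kb) took 23.0%, 24.4% and 23.3% in IgG1 PC, between 25.8% and 26.6% in the other day 8 groups and between 24.3% and 25.1% at day 6. The 42 distal members (2131 to 3166 kb) took between 30.6% and 33.3% everywhere. Genes on the strand of Igkc took between 44.5% and 46.2% in every library.

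By family, Igkv1 (13 members) and Igkv6 (9) led, with shares of 13.3% to 17.7% and 13.4% to 15.2% over all libraries. The Igkv3 family (13 members, all within the proximal part) took 8.38% ± 0.13 in IgE iGC and 8.73% ± 0.62 in IgG1 iGC, and 10.8% ± 0.06 in IgE PC and 10.5% ± 0.57 in IgG1 PC (SD, n = 3). The Igkv14 family (7 members) moved the other way, from 4.65% ± 0.15 and 4.86% ± 0.08 in the iGC groups to 3.48% ± 0.13 and 3.31% ± 0.37 in PC (SD, n = 3). In both families every PC library lay outside the range of the iGC libraries. The Igkv9 family took 3.76% ± 0.13 in IgE iGC and 3.54% ± 0.16 in IgG1 iGC, then 3.02% ± 0.08 in IgE PC and 1.99% ± 0.03 in IgG1 PC (SD, n = 3).

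The amount of Igkv RNA separated plasma cells from all other cells. Igkv genes took 0.143%, 0.139% and 0.135% of all counts at day 6, 0.185%, 0.173% and 0.168% in IgE iGC, and 0.135%, 0.142% and 0.141% in IgG1 iGC. They took 2.44%, 2.4999% and 2.60% in IgE PC and 2.63%, 1.93% and 1.99% in IgG1 PC. The ratio of mean shares, PC over iGC, was 14.3 in IgE and 15.7 in IgG1, and no PC library overlapped an iGC library. IgE iGC lay above IgG1 iGC and day 6 without overlap, by 1.26-fold in both comparisons of means. The plasma cell markers also summed higher in IgE iGC (705 to 797 CPM) than in IgG1 iGC (407 to 429) and at day 6 (526 to 574). Their part in the higher Igkv share was not tested. IgE PC and IgG1 PC overlapped, since IgG1 PC replicate 1 had the highest share of all libraries.

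**Figure D2:**
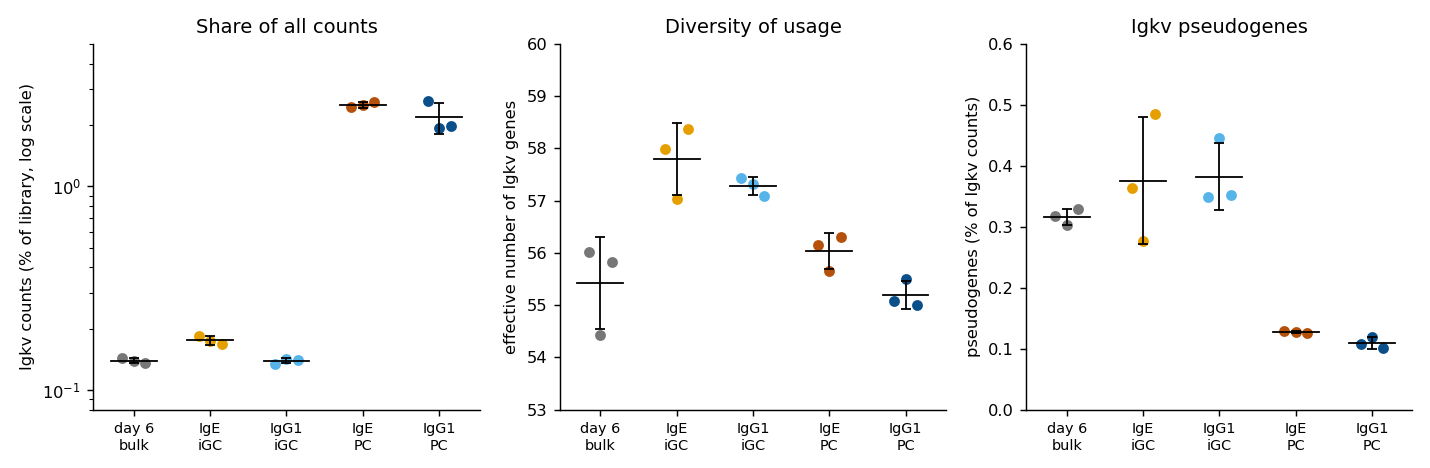
Igkv share of all counts (percent, log axis), effective number of Igkv genes (axis from 53 to 60) and share of Igkv counts in pseudogenes (percent), by group. Points are libraries, black lines the mean and bars 1 SD (n = 3); PC libraries lie above 1.9% in the first panel, against at most 0.185% elsewhere, and at or below 0.129% in the last.

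Igkv and Igkc counts kept a near-constant ratio, between 0.403 and 0.526 Igkv counts per Igkc count in every library. Lambda light chains, which mouse B cells use far less than kappa, were compared through Iglv1, Iglv2 and Iglv3. Their share of all light chain V counts was 7.49%, 7.95% and 7.27% in IgE PC and 10.3%, 9.43% and 8.87% in IgG1 PC. It ran from 9.85% to 11.2% in the other groups. The share of Iglc in light chain constant counts differed more, from 25.3% to 27.9% in iGC, 15.9% to 16.9% at day 6 and 7.30% to 10.01% in PC.

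Each member was then tested for its level, meaning its count relative to the whole library, with edgeR's quasi-likelihood test on all 15 libraries (TMM scaling, Benjamini-Hochberg adjusted p under 0.05). Of the 133 members, 107 passed the filter on low counts and 26 did not, so counts below are over the 107. From IgE iGC to IgE PC, all 107 were called higher, with a median log2 fold change of 4.23; among all 15692 genes tested 64.1% were called (30.5% higher, 33.6% lower) and the median was -0.08. From IgG1 iGC to IgG1 PC, all 107 were again called higher, with a median of 4.16; of all genes 59.1% were called (30.1% higher, 29% lower), with a median of 0.01. The smallest change in both was that of the pseudogene Igkv4-60, at 1.05 (SE 0.31, edgeR adjusted p = 0.0075) in IgE and 1.12 (SE 0.31, edgeR adjusted p = 0.00569) in IgG1. It is named here after its values were seen. Some members passed the filter through PC libraries alone: Igkv3-11, also named after its values were seen, had 0 to 1.23 expected counts in the 9 day 6 and iGC libraries and 19.03 to 41.08 in PC. For such members the filter set the direction, so both counts of 107 and their medians are a description only. With no filter, 109 of 133 members were called higher in IgE and 108 of 133 in IgG1, and none lower.

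Between isotypes, Igkv levels leaned to IgE at both stages. In IgE PC against IgG1 PC, 64 of 107 members were called, 63 higher and 1 lower in IgE PC, with a median log2 fold change of 0.49. Of all genes, 58.1% were called (27.4% higher, 30.7% lower), with a median of -0.05. The 1 lower member was Igkv12-41, at -1.21 (SE 0.12, edgeR adjusted p = 4.67e-07). Scaling by total counts in place of TMM moved the median of all genes to -0.30 and left 46 members called, 41 higher and 5 lower, with a median of 0.25. In IgE iGC against IgG1 iGC, 7 of 107 were called, all higher, with a median of 0.37, against 3.87% of all genes (1.99% higher, 1.88% lower) and a median of 0.01. This count fell to between 0 and 3 when any 1 of the 6 libraries was left out: it was 0, 1 and 2 without IgE iGC replicates 1, 2 and 3, and 0, 3 and 0 without IgG1 iGC replicates 1, 2 and 3. It was 12 with total-count scaling, 25 with DESeq2 and 50 with only these 6 libraries fitted.

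An interaction term, positive where the iGC to PC rise was larger in IgE than in IgG1, called 12 members, 11 positive and 1 negative, with a median of 0.15. Of all genes, 42.9% were called (19.8% positive, 23.1% negative), with a median of -0.06. Igkv9-120 (0.82, SE 0.20, edgeR adjusted p = 0.0046) and Igkv14-100 (0.69, SE 0.12, edgeR adjusted p = 0.000286) were among the positive ones, and Igkv12-41 was the negative one (-1.49, SE 0.17, edgeR adjusted p = 1.01e-05). With total-count scaling, 14 members were called, 4 positive and 10 negative, the median of the members turned to -0.08 and that of all genes was -0.30. The members' median was also negative, at -0.03, without IgG1 PC replicate 2. The count was 40 without IgG1 PC replicate 1, 6 without IgE PC replicate 3, and 7 without either IgE iGC replicate 2 or IgG1 iGC replicate 2, and 7 with the day 6 libraries left out of the fit.

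Against day 6, which both iGC groups are compared with, 56 of 107 members were called in IgE iGC, all higher (median 0.47), among 69.1% of all genes (32.8% higher, 36.3% lower; median -0.04). In IgG1 iGC, 6 were called, 5 higher and 1 lower (median 0.06), among 68.4% of all genes (32.4% higher, 36% lower; median -0.04). Total-count scaling gave 5 higher and 3 lower in the second comparison. Leaving out IgE iGC replicate 1 brought the first count to 33, and leaving out day 6 replicate 1 or replicate 3 brought the second to 3. Fitting only the groups compared brought the second to 32.

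Diversity was summarised as the effective number of genes, the number of equally used genes that would give the same Shannon entropy. It was 56.02, 54.4 and 55.8 at day 6, 58.0, 57.0 and 58.4 in IgE iGC and 57.4, 57.3 and 57.1 in IgG1 iGC. It was 56.1, 55.6 and 56.3 in IgE PC and 55.1, 55.5 and 55.0 in IgG1 PC. Both PC groups lay below both iGC groups without overlap, and IgG1 PC below IgE PC. The order of the sorted groups' means held with relatives merged, with TPM and without pseudogenes. It did not hold without the 87 members fractional in more than 7 libraries, which leaves a small part of the Igkv counts. There the mean was highest in IgG1 PC (9.67) and lowest in IgE PC (9.16), with the iGC groups (IgE 9.39, IgG1 9.38) and day 6 (9.47) between them. The 10 most used genes took between 37.6% and 40.4% of Igkv counts in every library. At a common depth of 29826 Igkv counts, the smallest library after rounding, between 110 and 114 genes were detected in day 6 and iGC libraries and 106 or 107 in PC libraries.

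Pseudogenes, whose V segments cannot encode a light chain, contributed little everywhere. Their share of Igkv counts was 0.318%, 0.302% and 0.329% at day 6, 0.365%, 0.277% and 0.485% in IgE iGC and 0.349%, 0.447% and 0.352% in IgG1 iGC. It was 0.129%, 0.128% and 0.126% in IgE PC and 0.108%, 0.120% and 0.101% in IgG1 PC. All 6 PC libraries lay below all 9 others. The usage of Igkv4-60 ran from 0.0517% to 0.124% in day 6 and iGC libraries and from 0.00733% to 0.0130% in PC libraries. Its count was fractional in all 15 libraries, and it shares 76-base stretches with other members, so these values are estimates. How its reads were divided was not tested.

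To test usage itself, the same model was fitted with the library size set to the Igkv total, and p-values were Bonferroni-adjusted over all 15692 genes. In this fit a gene outside the family is measured against the Igkv total, so nearly every gene counts as changed where that total moves. From IgG1 iGC to IgG1 PC, 11 of 107 members were called, 3 higher and 8 lower. Of all genes 84.6% were called (0.229% higher, 84.4% lower). With TMM factors taken over the Igkv genes, 9 were called, 5 higher and 4 lower. With the Igkv total used for Igkv genes and TMM for all others, a scaling chosen after the data were seen, 15 were called, 5 higher and 10 lower.

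Igkv12-41 (chr6:69858420-69858884, 2 exons, 864 kb from Igkj1) showed the largest rise among called genes with a usage of at least 0.5% in a compared group. Its usage was 1.18%, 1.02% and 0.967% at day 6, 0.943%, 0.850% and 1.08% in IgE iGC and 1.04%, 0.912% and 1.04% in IgG1 iGC. It was 0.712%, 0.723% and 0.765% in IgE PC and 2.04%, 2.26% and 2.76% in IgG1 PC. IgG1 PC was thus above every other library, and IgE PC below every other library. The log2 change from IgG1 iGC to IgG1 PC was 1.24 (SE 0.13, edgeR Bonferroni-adjusted p = 0.000699).

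Its relative Igkv12-44, whose V exon is printed above with it, did not follow: it took between 2.22% and 2.78% at day 6 and in iGC, between 2.18% and 2.29% in IgE PC and between 1.75% and 1.95% in IgG1 PC. The sum of both genes was 3.99%, 4.004% and 4.71% in IgG1 PC, 2.89%, 2.98% and 3.05% in IgE PC and between 3.26% and 3.86% in the other groups. The sums still do not overlap, but the log2 change of the sum from IgG1 iGC to IgG1 PC was 0.30 and was not called (edgeR Bonferroni-adjusted p = 1). How reads were divided between this pair was not tested beyond this sum.

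Igkv4-61 (69416893 to 69417455 on chromosome 6) and Igkv1-110 (68270485 to 68271267) were the other rises in IgG1. Igkv4-61 belongs to the largest set of members linked by shared stretches, 21 genes, and took 0.298%, 0.261% and 0.195% in IgG1 iGC and 0.599%, 0.492% and 0.528% in IgG1 PC. Its log2 change was 1.10 (SE 0.15, edgeR Bonferroni-adjusted p = 0.0224), while that of its whole set was near 0 (-0.00398). Igkv1-110 took 3.27%, 3.37% and 3.48% in IgG1 iGC and 5.66%, 5.40% and 5.21% in IgG1 PC, and became the most used gene in IgG1 PC replicate 1. Its log2 change was 0.68 (SE 0.09, edgeR Bonferroni-adjusted p = 0.0178). Together with Igkv1-117 it rose from a range of 7.62% to 7.89% to one of 10.5% to 10.9%, a log2 change of 0.46 that was not called.

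The falls were led, among genes of at least 0.5% usage, by Igkv9-120 (68049983 to 68050456, plus strand, 2672 kb from Igkj1). It took 2.36%, 2.56% and 2.70% in IgG1 iGC, 2.83%, 2.77% and 2.56% in IgE iGC, 2.38%, 2.52% and 2.37% at day 6 and 2.21%, 2.28% and 2.16% in IgE PC. In IgG1 PC it took 1.29%, 1.16% and 1.28%, below all others. The log2 change in IgG1 was -1.03 (SE 0.10, edgeR Bonferroni-adjusted p = 0.000128), and it was still called, at -0.83, for the sum with its relatives Igkv9-124 and Igkv9-129.

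Igkv14-100 and Igkv12-46, which share no 76-base stretch with another member, also fell in IgG1. The count of Igkv12-46 was nonetheless fractional in all 15 libraries, and that of Igkv14-100 in 1. Igkv14-100 took 0.968%, 1.06% and 0.982% in IgG1 iGC and 0.498%, 0.622% and 0.564% in IgG1 PC (log2 change -0.84, SE 0.11, edgeR Bonferroni-adjusted p = 0.00872). Igkv12-46 took 2.27%, 2.20% and 2.17% and then 1.39%, 1.41% and 1.51% (log2 change -0.63, SE 0.09, edgeR Bonferroni-adjusted p = 0.0297). The other 5 falls, named after their values were seen, were in rarer genes: Igkv4-60 (-3.12), Igkv4-73 (-2.04), Igkv4-77 (-2.00), Igkv4-92 (-1.83) and Igkv14-126 (-0.85), each under 0.5% in every IgG1 library. Igkv4-60, Igkv4-73 and Igkv4-77 are pseudogenes.

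Fitting only the 6 libraries of this comparison called 1 member, and neither Igkv12-41 (edgeR Bonferroni-adjusted p = 0.406) nor Igkv9-120 (0.934). The count of 11 was 7, 5 and 6 without IgG1 iGC replicates 1, 2 and 3, and 7 without IgG1 PC replicate 3. Igkv12-41 and Igkv9-120 stayed called without any single library; Igkv1-110, Igkv14-100 and Igkv12-46 lost the call without any 1 of the IgG1 iGC libraries (log2 changes of 0.66 to 0.71, -0.80 to -0.86 and -0.61 to -0.64). Igkv4-61 lost it without IgG1 iGC replicate 2 (1.13) or 3 (0.95), Igkv4-61 and Igkv14-100 without IgG1 PC replicate 3 (1.11 and -0.84), and Igkv12-46 without IgG1 PC replicate 2 (-0.61) or 3 (-0.66).

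The calls of the less changed genes also turned on the scaling and the filter. With TMM factors over the Igkv genes, Igkv12-46 (-0.47, edgeR Bonferroni-adjusted p = 0.794) and Igkv14-100 (-0.68, edgeR Bonferroni-adjusted p = 0.0869) were not called. Igkv12-46 was also not called with the Igkv plus Iglv total (-0.62, edgeR Bonferroni-adjusted p = 0.0523). With no filter, Igkv12-46 (edgeR Bonferroni-adjusted p = 0.589) and Igkv1-110 (edgeR Bonferroni-adjusted p = 0.0761) were not called. Fitting only these 6 libraries ended the calls of Igkv1-110, Igkv4-61, Igkv14-100 and Igkv12-46 as well (edgeR Bonferroni-adjusted p = 1 for each). In all, Igkv12-46 kept its call in 3 of 13 alternatives, Igkv1-110 in 6, Igkv14-100 in 7 and Igkv4-61 in 8.

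**Figure D3:**
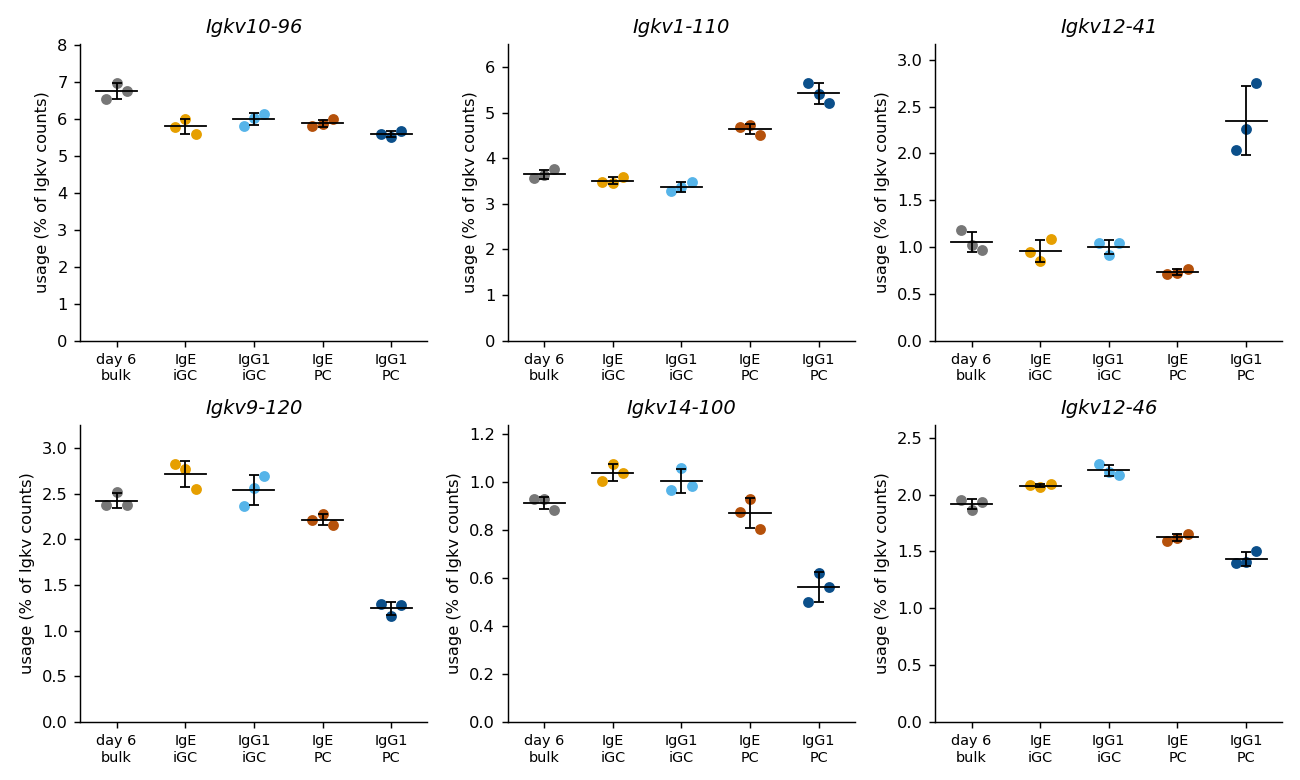
Usage (percent of Igkv counts) of 6 named Igkv genes in every library, by group. Points are libraries, black lines the mean and bars 1 SD (n = 3); Igkv12-41 in IgG1 PC (2.04% to 2.76%) lies above, and Igkv9-120 in IgG1 PC (1.16% to 1.29%) below, every other library.

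From IgE iGC to IgE PC, 2 of 107 members were called in usage, both lower; of all genes 86.6% were called (0.102% higher, 86.5% lower). They were the rare genes Igkv4-60 (-3.27, SE 0.29, edgeR Bonferroni-adjusted p = 6.22e-05) and Igkv4-92 (-1.77, SE 0.20, edgeR Bonferroni-adjusted p = 0.00198), named after their values were seen. Igkv4-60 belongs to the linked set of 21 genes and its count was fractional in all 15 libraries. With relatives merged, 1 of 58 genes or sets was called, lower in IgE PC. Fitting only these 6 libraries called 9, against 1 for the IgG1 comparison fitted alone. The main fit takes 1 spread per gene over all 5 groups, while replicates spread more in IgG1 PC than in IgE PC. Over the 36 genes of at least 1% mean usage, the median SD was 6.72% of the mean in IgG1 PC and 2.68% in IgE PC. The part of this in the counts of calls was not tested. The scaling with TMM outside the family called 5, 2 higher and 3 lower. At an unadjusted p under 0.05, 42 members passed, against 48 in IgG1, and no share of all genes was taken at that threshold. The genes that changed in IgG1 had smaller estimates in IgE: Igkv1-110 0.41, Igkv9-120 -0.29 (SE 0.10), Igkv14-100 -0.26 and Igkv12-46 -0.36, none of them called. Igkv12-41 had -0.38 (SE 0.13), opposite in sign to IgG1.

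**Figure D4:**
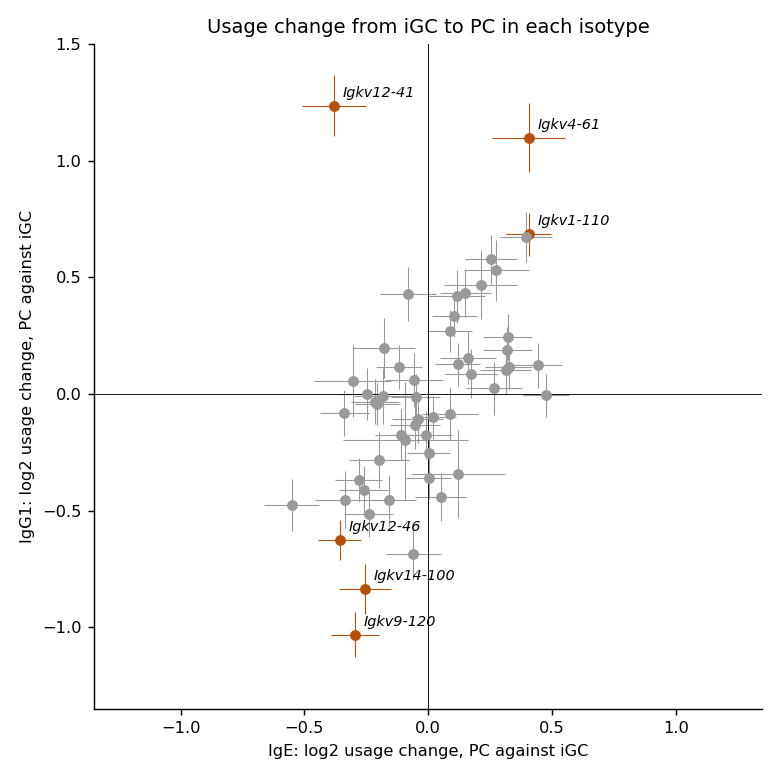
Log2 usage change from iGC to PC in IgE (horizontal) and IgG1 (vertical) for the 54 tested Igkv genes with a mean usage of at least 0.5% in a group. Bars are 1 SE. In the fit of all 15 libraries the 6 coloured, named genes were called in IgG1 and none of the 54 in IgE. With each comparison fitted alone, 9 of 107 members were called in IgE and 1 of 107 in IgG1. Igkv12-41 stands alone at 1.24 in IgG1 and -0.38 in IgE.

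The difference between these changes was tested directly. Of the 107 members, 1 was called in the interaction of usage, Igkv12-41, at -1.62 (SE 0.18, edgeR Bonferroni-adjusted p = 0.0019); of all genes 1.67% were called (0.344% positive, 1.33% negative). Igkv9-120 had 0.74 (SE 0.14) and Igkv14-100 had 0.58 (SE 0.15), and neither was called (edgeR Bonferroni-adjusted p = 0.767 and 1). Igkv1-110 (-0.28, SE 0.13), Igkv12-46 (0.27, SE 0.12) and Igkv4-61 (-0.69, SE 0.21) were not called either. For the sum of Igkv12-41 and Igkv12-44 the interaction was -0.61 and was not called. With all relatives merged, none of 58 genes or sets was called. Without IgG1 PC replicate 1, 2 members were called, and with TMM outside the family 2, 1 positive and 1 negative.

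In IgE PC against IgG1 PC, 2 of 107 members were called in usage, 1 higher and 1 lower, against 11.8% of all genes (0.567% higher, 11.2% lower). Igkv12-41 was lower in IgE PC by a log2 change of -1.68 (SE 0.13, edgeR Bonferroni-adjusted p = 6.66e-06). Igkv9-120 was higher by 0.83 (SE 0.10, edgeR Bonferroni-adjusted p = 0.0021). Summed with its relatives, Igkv12-41 kept the sign at -0.51 without a call, and Igkv9-120 was still called at 0.62. The count was 6 without IgG1 PC replicate 1 and 5 without IgG1 PC replicate 2. With TMM outside the family it was 8, 6 higher and 2 lower. At an unadjusted p under 0.05, 39 members passed, and no share of all genes was taken at that threshold. Fitting only these 6 libraries called Igkv12-41 alone, and Igkv9-120 had an edgeR Bonferroni-adjusted p of 1.

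Of the 80 genes with a mean usage of at least 0.1%, 24 had all 3 IgE PC libraries above all 3 IgG1 PC libraries and 19 had them below. Of all genes tested, 59.2% did not overlap in TMM-scaled CPM. That is another scale than usage, so the members' count is a description only. The shares of all genes given with such counts below are on the CPM scale too. The median size of the log2 usage difference was 0.21, and 1 gene reached 2-fold. Fibroblast markers (14.5 to 24.3 against 62.2 to 156 CPM) and B cell markers (2423 to 2652 against 3889 to 4309 CPM) differed between the same groups, and their part in these usage differences was not tested.

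The 2 iGC groups were the most alike. No member was called in usage by edgeR between IgE iGC and IgG1 iGC, where 0.255% of all genes were called. At an unadjusted p under 0.05, 1 member passed, with no share of all genes taken at that threshold. The scaling that used TMM outside the family also gave 0. Of the 80 genes, 9 were higher and 6 lower in IgE iGC without overlap (27.5% of all genes did not overlap), and the median size of the log2 difference was 0.08. In PC against iGC, 22 were higher and 29 lower in IgE (71.3% of all genes) and 18 higher and 21 lower in IgG1 (61.2% of all genes), with median sizes of 0.21 and 0.26.

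Against day 6 no member was called in usage by edgeR in either iGC group, where 19.4% and 15.2% of all genes were called in IgE and IgG1. At an unadjusted p under 0.05, 16 members passed in each, with no share of all genes taken at that threshold. The scaling with TMM outside the family gave 0 in both as well. Of the 80 genes, 21 were higher and 11 lower in IgE iGC (77.2% of all genes) and 21 higher and 12 lower in IgG1 iGC (77.6% of all genes). The log2 usage change of Igkv10-96 was -0.22 (SE 0.09) in IgE iGC and -0.17 (SE 0.09) in IgG1 iGC.

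How far replicates differed was measured as the usage distance, the summed absolute difference of usage over all members divided by 2, in percentage points. The median over the 3 replicate pairs was 3.25 at day 6, 4.01 in IgE iGC, 3.43 in IgG1 iGC, 2.12 in IgE PC and 5.38 in IgG1 PC. Counting error alone would give between 1.89 and 2.43 in day 6 and iGC libraries, and between 0.468 and 0.497 in PC libraries, which hold at least 857255 Igkv counts each. IgG1 PC replicates were therefore the least alike, although their counting error was low.

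Between groups, the median distance was 4.27 for IgE iGC against IgG1 iGC (3.26 to 5.22 over the 9 pairs), against 2.60 to 4.11 between IgE iGC replicates and 2.70 to 4.11 between IgG1 iGC replicates. It was 7.76 for IgE PC against IgE iGC, 11.4 for IgG1 PC against IgG1 iGC and 9.25 for IgE PC against IgG1 PC. Day 6 stood 5.65 from IgE iGC and 5.68 from IgG1 iGC, 8.86 from IgE PC and 11.2 from IgG1 PC. The lowest distance between a PC and an iGC library of the same isotype was 7.38 in IgE and 10.2 in IgG1, above every distance between replicates.

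**Figure D5:**
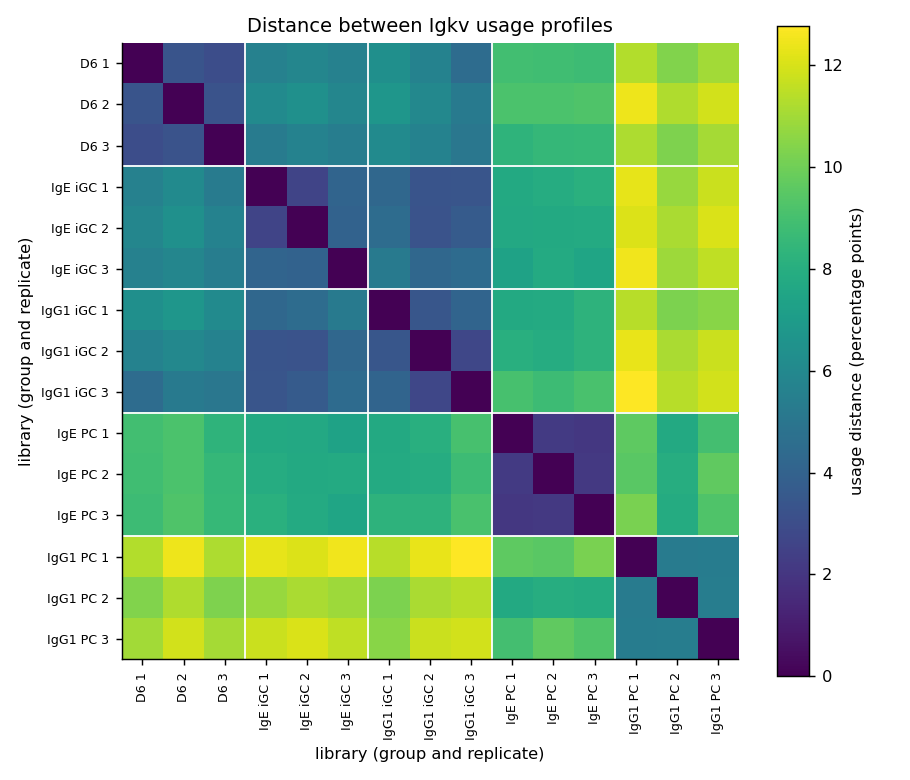
Usage distance (percentage points, colour) between all pairs of the 15 libraries, ordered by group and replicate, with white lines between groups. IgE PC replicates form the darkest block off the diagonal (2.07 to 2.19), and the brightest cells join IgG1 PC to iGC libraries.

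The spread of single genes, counting error included, was again lowest in IgE PC and highest in IgG1 PC. Day 6 and iGC libraries hold at most 75456 Igkv counts each, against at least 857255 in PC, so counting error enters their CVs more. It was not removed, so these CVs do not show that IgE PC replicates were the most alike beyond counting. Over the 36 genes with a mean usage of at least 1%, the median coefficient of variation (CV, SD as a percent of the mean, n = 3) was 3.87% at day 6, 4.05% in IgE iGC, 4.75% in IgG1 iGC, 2.68% in IgE PC and 6.72% in IgG1 PC. In IgG1 PC 9 of the 36 had a CV over 10%, in IgE PC none. Among genes of at least 1% in the group, the highest CV was in IgG1 PC for Igkv3-7 (1.45%, 0.966% and 1.302%, a CV of 20.02%), and 6.44% in IgE PC, for Igkv1-135 (4.96%, 5.43% and 4.80%).

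In the other groups the highest CV among such genes was 10.3% at day 6 for Igkv12-41, 12.0% in IgE iGC for Igkv10-94 (1.29%, 1.01% and 1.20%) and 10.1% in IgG1 iGC for Igkv13-84 (0.954%, 1.08% and 1.17%). Igkv13-84 shares 43.4% of its 76-base stretches with Igkv13-85, and both together took 1.61%, 1.87% and 2.06% in IgG1 iGC. Igkv3-7 shares stretches with Igkv3-12, and this sum in IgG1 PC was 3.25%, 2.57% and 3.14%, with replicate 2 low as for Igkv3-7 alone. The low replicate differed between genes. In IgG1 PC, unlike Igkv3-7, both Igkv5-43 (1.96%, against 2.48% and 2.17%) and Igkv14-111 (2.01%, against 2.17% and 2.73%) were lowest in replicate 1.

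A list of 20 genes that act at the light chain locus was read from the level test, of which 17 passed the count filter. From iGC to PC, 5 were called higher and 10 lower in IgE, where 64.1% of all genes were called, with a list median of -0.40 against -0.08 for all genes. In IgG1, 4 were higher and 10 lower, where 59.1% of all genes were called, with a median of -0.52 against 0.01. Irf4, a factor needed for plasma cell formation that binds kappa enhancers, rose by 4.49 in IgE and 3.86 in IgG1 (log2). Pou2af1, the octamer co-activator of immunoglobulin promoters, rose by 0.47 and 0.41. Pax5, the keeper of B cell identity, fell by 2.45 and 1.45. Between IgE PC and IgG1 PC, 6 of the list were called higher and 4 lower, a share near the 58.1% of all genes, with a median of 0.01 against -0.05. Between the iGC groups 1 of the 17, Tcf3, was called (0.25), where 3.87% of all genes were called. Against day 6, 8 were higher and 4 lower in IgE iGC and 8 higher and 5 lower in IgG1 iGC, near the 69.1% and 68.4% of all genes; the list medians were 0.25 and 0.16 against -0.04 for all genes in both.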

How the data were processed

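The deposited table holds, per the file headers, RSEM expected counts (estimated counts, which need not be whole) and TPM for each library; every per-sample column matched 1 title. The submitters' processing notes name the GRCm38 build and cutadapt 1.9.1, STAR 2.5.2a, RSEM 1.3.0 and DESeq2 1.12.3; the annotation is not given in the sources used here. Reads were single-end, strand-specific and 76 bases long, per the labels' protocols. Symbols were paired with 51633 of 51912 identifiers; coordinates, gene types and sequences came from GENCODE vM21 (GRCm38).

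Expected counts were rounded and filtered with filterByExpr (minimum count 10, minimum total 15), leaving 15692 genes, and fitted with edgeR 4.0.16 in R 4.3.3 (glmQLFit, robust, 1 mean per group). The level fit used TMM and Benjamini-Hochberg adjustment; the usage fit took the summed Igkv count as library size with Bonferroni adjustment. An adjusted p under 0.05 was a call, and an SE is the log2 change divided by the square root of F. The authors' deposited TPM served as an alternative only. Sums, diversity and distances over the members are described with no test. The fits were also run on simulated counts, where every group had the mean IgG1 PC profile and known changes were placed in IgE PC only. The Igkv total did not rise there as it did from iGC to PC. That run therefore does not test the usage fit in those comparisons.

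The genes named are the 10 most used, the most used in each library, up to 3 called usage changes in each direction per comparison (at least 0.5% in a group, replicates not overlapping) and the gene of highest CV in each group (at least 1%). The members and lists were chosen with earlier results of these data known. Alternatives were total-count scaling, other usage scalings, no filter, a replicate block, fits of the compared groups alone, DESeq2 1.42.0, TPM, thinning, leaving out pseudogenes or genes with fractional counts, summing to families and leaving out each library. Merging relatives and scaling the rest by TMM were added after the data were seen. Reads carry no molecular identifiers, so counting errors cover counting only.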

Additional observations from a re-analysis of the deposited data

Results flagged for a closer look

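The change in usage of Igkv12-41 from iGC to PC differed between the isotypes by the test of the difference itself. The estimate, IgE minus IgG1, was -1.62 (log2, SE 0.18, edgeR Bonferroni-adjusted p = 0.0019), with a rise in IgG1 (1.24) and a negative estimate in IgE (-0.38, not called). All 3 IgG1 PC libraries lay above all 3 IgG1 iGC libraries, and all 3 IgE PC libraries below all 3 IgE iGC libraries. The estimate kept its sign and call in 18 of 19 alternatives, the exception being the sum with Igkv12-44 (-0.61). Groups of 3 are too small for a search for outlying libraries.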

How the results depend on the processing

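With TPM in place of counts, the Igkv share was 0.722% at day 6, 0.858% in IgE iGC, 0.683% in IgG1 iGC, 10.2% in IgE PC and 8.23% in IgG1 PC, and the effective number was 58.5, 57.9, 56.9 and 56.1 in IgE iGC, IgG1 iGC, IgE PC and IgG1 PC. Without genes of mostly fractional counts, the shares, in the group order given first, were 0.0176%, 0.0232%, 0.0181%, 0.308% and 0.234%, the effective numbers 9.47, 9.39, 9.38, 9.16 and 9.67, and the distances in IgE PC and IgG1 PC 2.40 and 4.37. Without pseudogenes, the effective numbers of the sorted groups were 56.8, 56.3, 55.6 and 54.8. Merging relatives gave effective numbers of 25.2, 25.4, 25.2, 23.6 and 23.2 and replicate distances of 2.39, 3.05, 2.22, 1.78 and 4.11, and turned the Igkv4-61 change to -0.00398. Summing to families gave distances of 1.75, 2.07, 1.54, 1.33 and 3.06.

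Level calls in IgE iGC against IgG1 iGC were 12 with total-count scaling, 25 with DESeq2 and 50 when fitted alone. Fitting alone also gave 7 in the interaction and 32 in IgG1 iGC against day 6. Usage calls fitted alone were 1 for IgE PC against IgG1 PC, 9 for IgE PC against IgE iGC and 1 for IgG1 PC against IgG1 iGC; with TMM outside the family they were 8 and 5 for the first 2 and 2 for the interaction. No filter gave 1 for IgE iGC against day 6.

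Leaving out 1 library at a time gave effective numbers of 55.1 to 55.9 at day 6, 57.5 to 58.2 in IgE iGC and 55.0 to 55.3 in IgG1 PC, and distances of 3.04 to 3.31 at day 6, 2.60 to 4.11 in IgE iGC, 2.70 to 4.11 in IgG1 iGC, 2.07 to 2.19 in IgE PC and 5.30 to 5.43 in IgG1 PC. Level calls ran from 0 to 3 between the iGC groups, 6 to 40 in the interaction, 33 to 52 in IgE iGC and 3 to 6 in IgG1 iGC against day 6. Usage calls ran from 2 to 6 between the PC groups, 5 to 14 in IgG1 PC against IgG1 iGC and 1 to 2 in the interaction. The cause of these changes was not tested.

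With the replicate number as a block, IgG1 PC against IgG1 iGC had 7 usage calls in place of 11; no other count moved by over 1.5 times. The block ended the calls of Igkv1-110 (0.68, edgeR Bonferroni-adjusted p = 0.0904) and Igkv12-46 (-0.63, edgeR Bonferroni-adjusted p = 0.109) there. The numbers were not taken as pairs, since not every correlation of same-numbered samples was over 0.1: the mean correlation of same-numbered deviations was -0.0146 over all genes (above 0.1 in 0 of 30 pairs of libraries) and 0.150 for Igkv usage (16 of 30, among them all 10 pairs of replicate 1 libraries, at 0.130 to 0.576), and the nearest library of another group had the same number for 6 of 15 libraries. Whether some same-numbered samples share a source is not known. Among recomputed values 294 were held as unchanged, 33 lost the call, 78 moved and 1 turned. For a count of calls, unchanged means within 1.5 times the main count, whatever the directions of the calls. For the change of a single gene it means the same sign and a call. Counting error limits day 6 and iGC libraries most.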

Other observations

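Igkv4-55, named after its values were seen, was low in 1 library. Its usage was 0.997%, 0.312% and 0.867% at day 6, a CV of 50.1%, and between 0.898% and 1.31% in all sorted libraries. In day 6 replicate 2 this was 159 expected counts, against 559 and 406 in replicates 1 and 3. Its closest relative Igkv4-70, with which it shares 63 stretches of 76 bases, took 0.303%, 0.316% and 0.341% at day 6, and the sum of both was 0.628% in replicate 2 and at least 1.21% in the other replicates.

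The Igkv17 family took 3.99% ± 0.07 of Igkv counts in IgE PC, against 4.80% ± 0.11 in IgE iGC, 5.37% ± 0.16 in IgG1 iGC, 5.17% ± 0.21 in IgG1 PC and 5.16% ± 0.19 at day 6 (SD, n = 3). The IgE PC libraries lay below all others. The Igkv16 family, which has the single member Igkv16-104, took 1.20% ± 0.12 in IgG1 PC and between 1.63% and 1.75% on average in the other groups.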
